A study of Mus musculus with 5 samples.

Results

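The chemokine genes Ccl3, Ccl4 and Ccl5 and the receptor gene Ccr1 were followed across 5 arrays of peritoneal lavage cells, the cells washed out of the abdominal cavity. All probes of these genes were sought by gene name or RefSeq transcript. The search found 4 of 55681 probes, 1 for each gene, and the members are 4 of the 20145 genes that could be named. All 4 probes were found through the RefSeq transcript, and no probe carried the gene symbol as its name. No second probe checks any of them.

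The cells came from female BALB/c mice, an inbred strain, 2 h after an intraperitoneal injection. The vehicle group received PBS (phosphate-buffered saline) alone. The AEPS group was given 50 µg of a polysaccharide extracted from roots of the plant Actinidia eriantha. The OVA group was given 25 µg ovalbumin, a model protein antigen. The OVA+AEPS group received both at these doses, and the OVA+Alum group received the same dose of ovalbumin and 200 µg of Alum, an adjuvant made of an aluminium salt. The mice's age and the number of mice behind each RNA sample are not given in the sources used here. Each group had 1 array, so no difference has a replicate check, no p-value is given, and "higher" and "lower" describe these arrays only.

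CC chemokines are small secreted proteins that draw leukocytes along a gradient. The products of Ccl3 and Ccl4, also called macrophage inflammatory proteins 1 alpha and 1 beta, are made rapidly by activated macrophages, neutrophils, mast cells and lymphocytes. Ccl5, also called RANTES, is made by T cells, NK cells and stimulated macrophages. Ccr1 is a G protein-coupled receptor on monocytes, neutrophils and other leukocytes. It is a receptor for the Ccl3 and Ccl5 proteins, while mouse Ccl4 acts mainly through another receptor.

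In the mouse assembly GRCm38.p6 the 3 ligand genes lie in the CC chemokine cluster of chromosome 11. RefSeq places Ccl3 at 83647843 to 83649378, Ccl4 at 83648624 to 83664683 and Ccl5 at 83525778 to 83530518. The listed spans of Ccl3 and Ccl4 overlap. The Ccl4 entry lists a predicted transcript beside the curated one, and the table does not say which of them sets the span. Ccr1 lies on chromosome 9, at 123962126 to 123968692. A RefSeq promoter entry was matched for 2 of the 4 genes, Ccl3 and Ccr1. The 250 bases before each start are shown for these 2 genes, and any bearing of the sequence on the array differences was not tested. Capitals mark the letters that matched a searched motif on either strand. The stretches lie on the minus strand, at chr11:83649379-83649628 for Ccl3 and chr9:123968693-123968942 for Ccr1.
Ccl3: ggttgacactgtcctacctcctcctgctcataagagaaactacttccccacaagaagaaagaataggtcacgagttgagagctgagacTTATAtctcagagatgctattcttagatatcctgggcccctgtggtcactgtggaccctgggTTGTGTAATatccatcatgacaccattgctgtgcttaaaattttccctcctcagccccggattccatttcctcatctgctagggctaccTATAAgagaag
Ccr1: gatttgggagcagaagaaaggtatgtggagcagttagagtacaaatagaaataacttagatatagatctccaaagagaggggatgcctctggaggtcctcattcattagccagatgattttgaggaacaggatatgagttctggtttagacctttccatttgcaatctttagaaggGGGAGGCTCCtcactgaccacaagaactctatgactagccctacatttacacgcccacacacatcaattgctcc

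The motifs searched on both strands were TATAA (TATA box), TGANTCA (AP-1), TTNNGNAAT (C/EBP), the interferon-stimulated response element and the NF-kB consensus. No match overlapped another. In the Ccl3 stretch TATAA began 11 bases before the start and matched again, on the reverse strand, 162 bases before it. A C/EBP match in the same stretch began 100 bases before the start. The Ccr1 stretch held 1 match, to the NF-kB consensus, beginning 74 bases before the start. Among 32851 RefSeq promoters cut to the same length, 22.8% held TATAA, 10.2% the C/EBP letters, 7.25% the NF-kB consensus, 6.75% the AP-1 letters and 2.98% the interferon response element. A match is a description of these letters and not a binding site.

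A single slide carried the 5 arrays. PBS was alone in slide row 1 and shared column 4 with the OVA+Alum array, so position and treatment cannot be told apart in comparisons with PBS. Of 20121 genes with a value on every array, 163 were at least 2-fold lower on both column 4 arrays than on each of the other 3. None of the 4 genes was among them. With so few such genes, 0 of 4 would be usual for any 4 genes, and an effect of position was not tested. The share of probes flagged well above background ranged from 56.7% to 60.0%, and no spot was saturated. Each of the 4 genes was well above background on 5 of 5 arrays. Every measured marker of large peritoneal macrophages (16 genes) and of B cells (10 genes) was well above background on all 5 arrays. So were those of neutrophils (19 genes) and of T and NK cells (20 genes). Detection alone therefore does not show which cells made up the samples.

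Signals are the scanner's processed Cy3 signals, with a technical error of about 10%. Differences are log2 values after each array's 75th percentile signal was set equal, with a technical SE that leaves out the spread between mice and arrays. A gene was called higher or lower at 2-fold or more, without a test. Signals of different probes are not compared with each other.

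Ccl3 had a signal of 15450.5 with PBS, 77104.3 with AEPS, 25993 with OVA, 72933.5 with OVA+AEPS and 28007 with OVA+Alum. The arrays with AEPS stood together at the top, and the 3 arrays without it stood together at the bottom. After scaling, OVA+AEPS exceeded OVA+Alum, the next array below, by 2.75-fold (1.46 ± 0.20). Within the upper pair the difference was 0.03 ± 0.20. In the lower group neighbours differed by 0.37 (PBS to OVA) and 0.16 (OVA to OVA+Alum), each under 2 technical SE. The whole range was 4.05-fold.

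Ccl4 had a signal of 14629.4 with PBS, 157343 with AEPS, 53551.6 with OVA, 149765 with OVA+AEPS and 70264.1 with OVA+Alum. It spanned the widest range of the 4 genes, 8.73-fold from PBS to AEPS. PBS was lowest, OVA lay 2.81-fold above it, and OVA+Alum lay above OVA by 0.45 ± 0.20, under 2-fold but more than 2 technical SE. OVA+AEPS lay 2.25-fold above OVA+Alum, and the arrays with AEPS differed by 0.02 ± 0.20. Unlike Ccl3, Ccl4 was thus at least 2-fold above PBS on all 4 other arrays.

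Ccl5 had a signal of 67324.1 with PBS, 188913 with AEPS, 121965 with OVA, 172121 with OVA+AEPS and 117612 with OVA+Alum. After scaling, the order of the arrays was that of Ccl3 and Ccl4, but OVA and OVA+Alum were not told apart. The range was narrower, 2.28-fold. No neighbours in the order were 2-fold apart. OVA and OVA+Alum differed by 0.00 ± 0.20, and OVA+AEPS and AEPS by 0.08 ± 0.20. The steps from PBS to OVA (0.48) and from OVA+Alum to OVA+AEPS (0.63) each exceeded 2 technical SE.

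Ccr1 had a signal of 179.0 with PBS, 408.0 with AEPS, 519.6 with OVA, 241.3 with OVA+AEPS and 440.9 with OVA+Alum. Its order differed from that of the ligands: PBS and OVA+AEPS were lowest, and AEPS, OVA+Alum and OVA were highest. No neighbours were 2-fold apart. The largest step, 0.70 ± 0.20, lay between OVA+AEPS and AEPS, while PBS and OVA+AEPS differed by 0.19 ± 0.21. The whole range was 2.23-fold, from PBS to OVA.

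**Figure D1:**
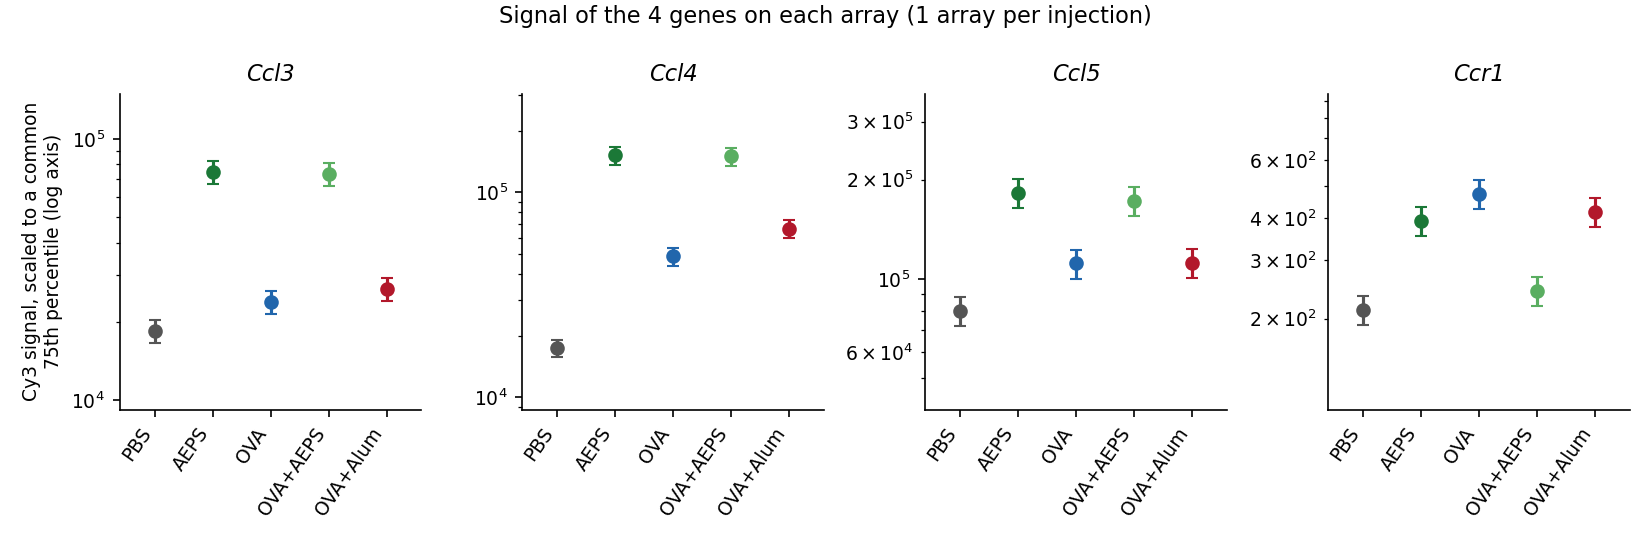
Scaled Cy3 signal (log axis, 1 panel per gene) of Ccl3, Ccl4, Ccl5 and Ccr1 on the 5 arrays; points are single arrays and bars the scanner's technical error of about 10%. The arrays with AEPS are the 2 highest in each ligand panel, while for Ccr1 the OVA+AEPS array lies next to PBS and OVA is highest.

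AEPS alone was set against the vehicle to show what the polysaccharide does without antigen. Ccl4 was higher with AEPS by 3.13 ± 0.20, an 8.73-fold difference that ranked 142nd from the top of 14936 genes. Ccl3 was higher by 2.02 ± 0.20 (4.05-fold) and ranked 391st. Ccl5 was higher by 1.19 ± 0.20 (2.28-fold) and ranked 1012th. Ccr1 was 1.85-fold above PBS (0.89 ± 0.21), under the 2-fold line. It passes that line with spike-in scaling, at 1.54. Thus 3 of 4 members were called higher and none lower, against a background of 15.6% of all genes called either way and 8.7% called higher. The members' median difference was 1.60 and that of all genes -0.17.

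Markers of several cell types moved in the same comparison. Of 19 measured neutrophil markers, 14 were at least 2-fold higher with AEPS and none lower, with a list median of 1.39. Lcn2, which encodes the granule protein lipocalin 2, was higher by 3.62 and Retnlg, which encodes a resistin-like protein, by 2.53. The summed scaled signal of the list was 713880 with PBS and between 1224710 and 1476590 on the other 4 arrays, and each of the 19 genes was well above background on every array. Of 10 mast cell markers, 5 were higher with AEPS (median 0.73). Hdc, 1 of these 5, is also in the neutrophil list. The rest of the mast cell list, Cma1 (0.25), Mcpt4 (0.24), Tpsb2 (0.21), Kit (0.09) and Gata2 (-0.28), stayed within 2-fold. Of 9 inflammatory monocyte markers 2 were higher (median 0.62). Among 20 T and NK cell markers 3 were higher, the killer receptor gene Klrk1 (1.61) and the granzyme genes Gzma and Gzmb (3.21), with a list median of -0.01. Of 16 large macrophage markers 3 were lower, Gata6, Marco and Rarb, with a list median of -0.55. The part of these cell markers in the differences of the 4 genes was not tested. In these bulk samples fewer cells of a type and less RNA per cell cannot be told apart.

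OVA alone against PBS separated the members differently. Ccl4 was higher by 1.49 ± 0.20 (2.81-fold, rank 457 of 15041). Ccr1 was higher by 1.16 ± 0.20 (2.23-fold, rank 780), but fell short of 2-fold after normexp and quantile normalization, at 0.97. Ccl3 (0.37 ± 0.20) and Ccl5 (0.48 ± 0.20) were under 2-fold. The 2 of 4 members called higher stood against 10.8% of all genes called either way and 6.67% called higher. Neutrophil markers were also higher on the OVA array, 13 of 19 with a median of 1.17, and so were 5 of 10 mast cell markers. Hdc counts in both lists. Of 9 red cell and platelet markers 3 were lower, the globin genes Hbb-bs (-1.57) and Hba-a1 (-1.31) and the heme synthesis gene Alas2 (-2.07). The part of these markers in the result was not tested.

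AEPS added to OVA was set against OVA to show the polysaccharide's difference in the presence of antigen. Ccl3 was higher by 1.62 ± 0.20 (3.08-fold, rank 266 of 14904) and Ccl4 by 1.62 ± 0.20 (3.07-fold, rank 269). Ccl5 differed by 0.63 ± 0.20, under 2-fold. Ccr1 was 1.96-fold below OVA (-0.97 ± 0.20), the 562nd lowest of 14904 genes. Scaled to the array medians, its difference was -1.06, past the 2-fold line. With 2 of 4 members called higher, the background was 7.72% of genes either way and 4.08% higher. Few cell type markers passed 2-fold here: among neutrophil markers 1 of 19 was higher and 2 were lower (median 0.11), and among large macrophage markers 1 of 16 was lower (median 0.08). The T and NK cell list had a median of -0.43, with 1 of 20 higher and 1 lower. This pair of arrays shared slide row 2 and neither lay in column 4, but their columns differed.

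**Figure D2:**
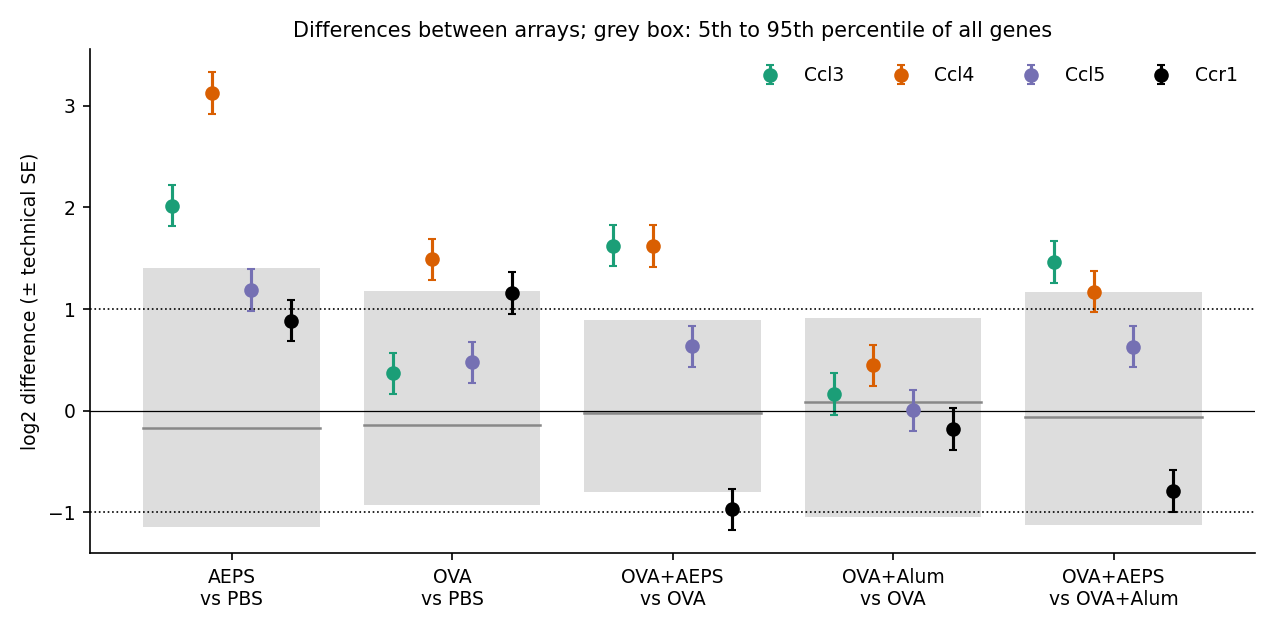
Log2 differences of Ccl3, Ccl4, Ccl5 and Ccr1 in the 5 main comparisons; bars are technical SE, grey boxes span the 5th to 95th percentile of all genes with their median as a line, and dotted lines mark 2-fold. Ccl3 and Ccl4 lie above the box in AEPS vs PBS and OVA+AEPS vs OVA, and Ccr1 lies below it in OVA+AEPS vs OVA.

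Alum added to OVA left all 4 genes within 2-fold of OVA alone. The differences were 0.45 ± 0.20 for Ccl4 and 0.16 ± 0.20 for Ccl3. Ccl5 differed by 0.00 ± 0.20 and Ccr1 by -0.18 ± 0.20. The 0 of 4 members called stood against 9.59% of all genes called either way and 4.15% called higher. At that share 0 of 4 would be usual for any 4 genes. In the same pair of arrays 5 of 16 large macrophage markers were lower (median -0.75), among them Timd4, a receptor for dying cells, 4 of 19 neutrophil markers were higher and 2 lower (median 0.58), and 3 of 10 mast cell markers were lower (median -0.27). Of 9 red cell and platelet markers 4 were higher, Hbb-bs, Hba-a1, Alas2 and the platelet gene Ppbp.

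Setting the adjuvants against each other, both with OVA, Ccl3 was higher with AEPS than with Alum by 1.46 ± 0.20 and Ccl4 by 1.17 ± 0.20. Ccl5 differed by 0.63 ± 0.20 and Ccr1 by -0.79 ± 0.20, both under 2-fold. The 2 members called higher compare with 13.2% of all genes called either way and 6.76% called higher. Large macrophage markers were higher with AEPS for 7 of 16 genes (median 0.88), mast cell markers for 4 of 10 (median 0.08), and neutrophil markers were higher for 2 of 19 and lower for 4 (median -0.31). Their part in the members' differences was not tested.

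Side comparisons complete the design. OVA+AEPS differed from PBS by 3.11 for Ccl4, 1.99 for Ccl3, 1.11 for Ccl5 and 0.19 for Ccr1, so that 3 of 4 were called higher (14.5% of genes either way, 8.3% higher). OVA+Alum, which shared column 4 with PBS, differed from it by 1.94 for Ccl4, 0.97 for Ccr1, 0.53 for Ccl3 and 0.48 for Ccl5. Only Ccl4 passed 2-fold there, against 11.6% of genes either way and 6.46% higher. Ccr1 also passed it with spike-in scaling (1.25) and with scaling to the array medians. AEPS alone against OVA alone, both outside column 4, gave 1.65 for Ccl3, 1.64 for Ccl4, 0.71 for Ccl5 and -0.27 for Ccr1, with 2 called (7.49% either way, 4.25% higher). In AEPS against OVA+Alum the differences were 1.49 for Ccl3, 1.19 for Ccl4, 0.71 for Ccl5 and -0.09 for Ccr1, again with 2 called (13.3% either way, 6.66% higher). With spike-in scaling Ccl5 passed 2-fold in both, at 1.08 and 1.09, and Ccr1 changed sign, to 0.10 and 0.29. After normexp and quantile normalization Ccl4 fell just short of 2-fold in AEPS against OVA+Alum, at 0.99.

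The arrays with AEPS, with and without OVA, differed little in the ligands. OVA+AEPS minus AEPS was -0.03 for Ccl3, -0.02 for Ccl4 and -0.08 for Ccl5, each ± 0.20. Ccr1 was the exception, at -0.70 ± 0.20, the 442nd lowest of 14692 genes though under 2-fold. None of the members was called, which would be usual for any 4 genes when 3.94% were called either way and 2.06% higher. The median of all genes was 0.00. In the same pair the T and NK cell list had a median of -0.49, the neutrophil list -0.16 and the large macrophage list 0.18. The red cell and platelet list had a median of -0.51, with 3 of 8 lower, Hbb-bs, Hba-a1 and Alas2. The part of these markers in the Ccr1 difference was not tested.

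The size of the AEPS difference with OVA and without it was then set side by side. For Ccl3 it was 1.62 with OVA and 2.02 without. For Ccl4 it was 1.62 and 3.13, a gap of -1.51 ± 0.29 that was as low or lower for 3.22% of 14454 genes. Ccl5 gave 0.63 and 1.19. Ccr1 changed direction, from 0.89 without OVA to -0.97 with it, a gap of -1.86 ± 0.29 that was as low or lower for 1.86% of genes. The median gap of all genes was 0.14. Other chemokine receptor genes, Cxcr1 and Ccr2 among them, also had a lower AEPS difference with OVA than without. Of the 14454 genes, 31, Ccr1 among them, were at least as high as Ccr1 without OVA and at least as low with it. These cut-offs are Ccr1's own values, both under 2-fold, so the count describes its place and is not a test. With spike-in scaling the gaps were -0.89 for Ccl3, -2.00 for Ccl4, -1.05 for Ccl5 and -2.36 for Ccr1, against -0.39, -1.51, -0.55 and -1.86 in the main setting. That scaling shifts the gap of every gene by the same amount, so the members' place among all genes is unchanged. After normexp and quantile normalization the gap of Ccr1 was -1.53. With 1 array behind each value, none of these gaps was tested.

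**Figure D3:**
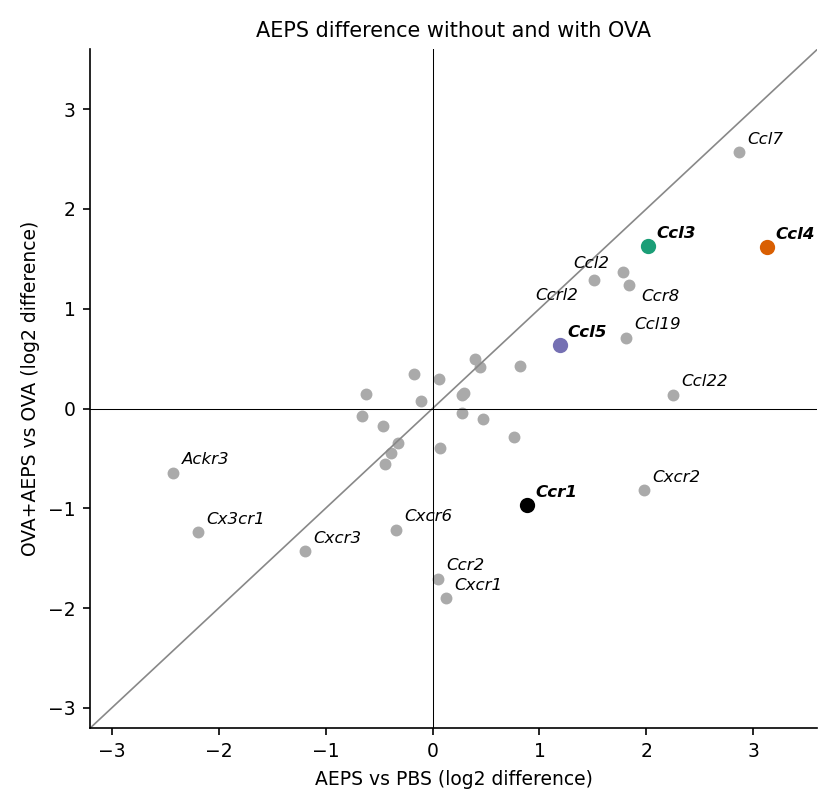
Log2 difference of AEPS without OVA (horizontal) and with OVA (vertical) for the 4 genes (coloured) and for other chemokine and chemokine receptor genes (grey); the diagonal marks equal differences. Ccl3 (2.02 and 1.62) lies near the diagonal, Ccl4 (3.13 and 1.62) below it, and Ccr1 (0.89 and -0.97) in the lower right quadrant.

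Among the other ligands of Ccr1 in mice, Ccl7, a monocyte chemoattractant, was higher by 2.87 in AEPS vs PBS and by 2.57 in OVA+AEPS vs OVA. With OVA alone it differed from PBS by 0.35 and with OVA+Alum by 0.70. Ccl6 and Ccl9, made constitutively by macrophages and myeloid cells, were within 2-fold of PBS on every array, with differences from -0.69 to 0.28. Of 3 other Ccr1 ligands, 1 was therefore called higher in AEPS vs PBS and in OVA+AEPS vs OVA, and 0 in OVA vs PBS.

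Of 13 other CC chemokine genes, 10 were well above background, and Ccl11, Ccl20 and Ccl28 were not on any array. In AEPS vs PBS 3 of 10 were higher, the monocyte attractant Ccl2 (1.78), Ccl19, a ligand of Ccr7 (1.81), and Ccl22, a ligand of Ccr4 (2.25), and 0 were lower. In OVA vs PBS Ccl22 (2.20) and Ccl17 (1.02), which share the receptor Ccr4, were higher. In OVA+AEPS vs OVA 1 of 10 was higher, Ccl2 at 1.37, and in OVA+Alum vs OVA none was. Ccl2 and Ccl7 were thus at least 2-fold higher in the same AEPS comparisons as Ccl3 and Ccl4, whereas Ccl22 stood about equally high with AEPS, OVA and OVA+AEPS. Beside these counts and those of the other Ccr1 ligands, 15.6% of all genes were called in AEPS vs PBS. The share was 10.8% in OVA vs PBS, 7.72% in OVA+AEPS vs OVA and 9.59% in OVA+Alum vs OVA.

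**Figure D4:**
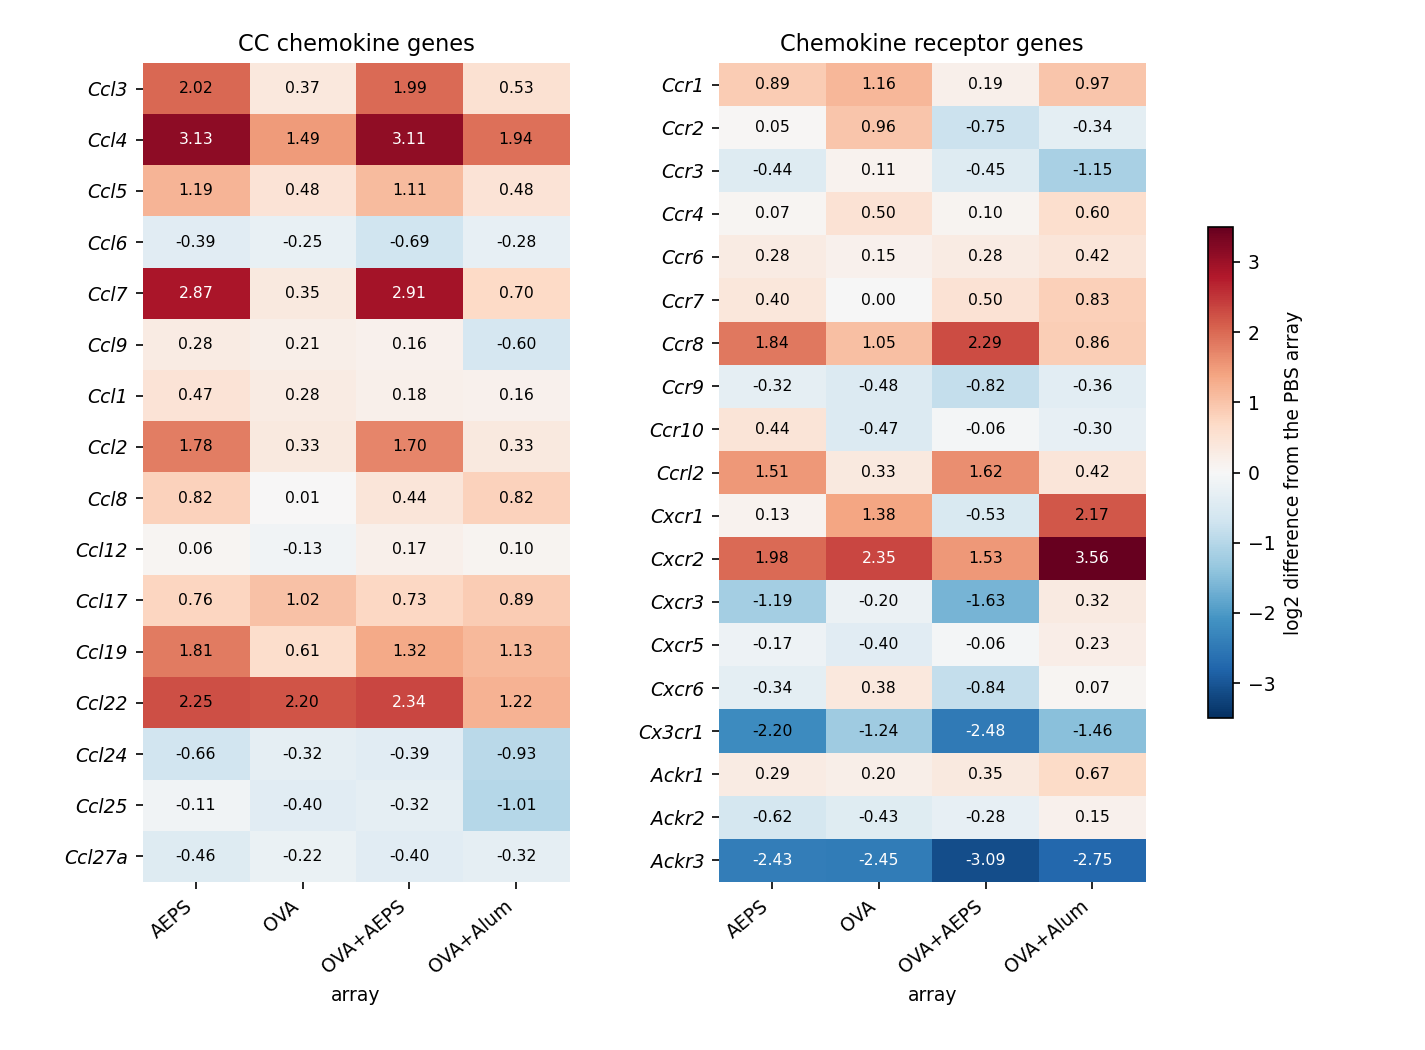
Log2 difference from the PBS array for CC chemokine genes (left) and chemokine receptor genes (right) well above background on at least 1 array; red is higher, blue lower, and each cell gives its value. Ccl4, Ccl7 and Ccl3 are at 3.13, 2.87 and 2.02 with AEPS, while Ccr1 lies between 0.19 and 1.16 on the 4 arrays.

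Other chemokine receptor genes gave a mixed picture around Ccr1. In AEPS vs PBS 3 of 15 measured were higher, the neutrophil receptor Cxcr2 (1.98), Ccr8 (1.84) and the non-signalling chemerin receptor Ccrl2 (1.51), and 2 were lower, Cx3cr1 (-2.20), the receptor for fractalkine, and Cxcr3 (-1.19). In OVA+AEPS vs OVA 2 were higher and 5 lower, where 7.72% of all genes were called either way (15.6% in AEPS vs PBS). The lower ones were Cxcr1 (-1.90), Ccr2 (-1.71), Cxcr3 (-1.43), Cx3cr1 and Cxcr6, and the list median was -0.39 beside -0.02 for all genes. Without OVA, in AEPS vs PBS, Cxcr1 (0.13), Ccr2 (0.05) and Cxcr6 (-0.34) were within 2-fold, while Cxcr3 and Cx3cr1 were already lower. A lower AEPS difference with OVA than without was thus not particular to Ccr1. Ccr3, which also binds Ccl5, differed from PBS by -0.44 with AEPS, 0.11 with OVA and -0.45 with OVA+AEPS. With OVA+Alum it was lower (-1.15). Of the atypical receptors, which bind chemokines without G protein signalling, Ackr2, a scavenger of inflammatory CC chemokines, stayed within 2-fold of PBS. Ackr3, which binds no CC chemokine of this set, was lower on all 4 arrays, with differences from -3.09 (OVA+AEPS) to -2.43 (AEPS).

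Genes of the signalling machinery below the receptor (G protein subunits, phosphoinositide 3-kinase gamma, phospholipases, Rac and Dock2) were within 2-fold in most comparisons. None of 18 was called in AEPS vs PBS, OVA vs PBS, OVA+AEPS vs OVA or OVA+Alum vs OVA. In OVA+AEPS vs OVA+Alum 1 was lower, Prex1, which encodes an exchange factor that activates Rac. Of genes that switch off receptor signalling, 12 were measured. Rgs1, which encodes a GTPase accelerator that ends G protein signalling, differed from PBS by 3.37 with AEPS, 1.83 with OVA, 3.30 with OVA+AEPS and 1.44 with OVA+Alum. In AEPS vs PBS Rgs1 was the 1 higher gene of 12, and 4 were lower: Arrb2 (-1.67) and Arrb1 (-1.16), which encode beta-arrestins, Rgs14 (-1.12) and the receptor kinase gene Grk3 (-1.02). In OVA+AEPS vs OVA 1 of 12 was higher and 1 lower, and in OVA vs PBS 1 was higher and 0 lower. In OVA+Alum vs OVA 1 was lower. Beside these counts, 15.6% of all genes were called in AEPS vs PBS, 7.72% in OVA+AEPS vs OVA, 10.8% in OVA vs PBS and 9.59% in OVA+Alum vs OVA.

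Among 18 genes of transcription factors known to act on the ligand genes, 3 were higher in AEPS vs PBS and 1 was lower. The interferon regulatory factor gene Irf7 was higher by 1.97, the NF-kB subunit gene Rel by 1.40 and Cebpd by 1.34, while Fos was lower (-1.16). In OVA+AEPS vs OVA 2 were higher, Irf7 and Atf3, and in OVA vs PBS Cebpd was higher and Fosl1 lower. Genes of mRNA decay and feedback, a mixed list of regulators of inflammatory transcripts, were higher in 5 of 10 cases in AEPS vs PBS and lower in 0. They included Tnfaip3 (2.41), an inhibitor of NF-kB signalling, and Zc3h12a (2.00), which encodes the ribonuclease Regnase-1. In OVA vs PBS these same 2 genes were higher, at 1.32 and 1.58. Zfp36, which encodes tristetraprolin, an RNA-binding protein that speeds decay of AU-rich transcripts, was within 2-fold of PBS on all 4 arrays (0.11 to 0.90). Beside the counts of both lists, 15.6% of all genes were called in AEPS vs PBS and 10.8% in OVA vs PBS. In OVA+AEPS vs OVA the share was 7.72%. The count of transcription factor genes in OVA vs PBS lay near the share of all genes.

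Chemokines are stored and held on proteoglycans, and can be trimmed by proteases. A list of 7 genes held 4 of carriers (Srgn, Sdc1, Sdc4 and Cd44) and 3 of proteases (Dpp4, Ctsg and Elane). In AEPS vs PBS Sdc4 (2.04), Srgn (1.52), which encodes the granule proteoglycan serglycin, and Cd44 (1.05) were higher and Sdc1 (-1.31) was lower. The same 3 were higher in OVA vs PBS, at 1.93, 1.33 and 1.02. None of the 7 was called in OVA+AEPS vs OVA, where 7.72% of all genes were called. That share was 15.6% in AEPS vs PBS and 10.8% in OVA vs PBS. The peptidase gene Dpp4, whose product trims Ccl5, differed from PBS by 0.29 to 0.51.

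**Figure D5:**
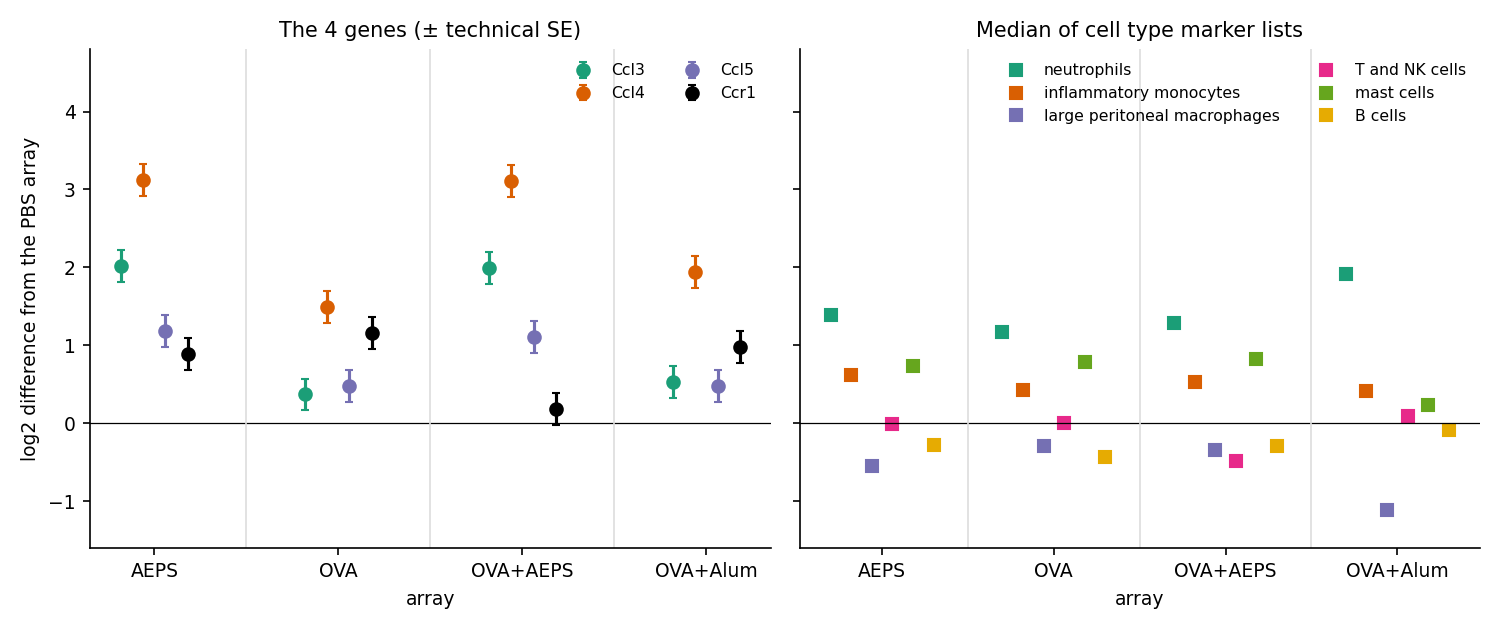
Log2 difference from the PBS array for Ccl3, Ccl4, Ccl5 and Ccr1 (left, bars are technical SE) and medians of 6 cell type marker lists (right, squares) on the other 4 arrays. Neutrophil medians lie between 1.17 and 1.91 on all 4 arrays, highest with OVA+Alum. Ccl4 lies between 1.49 and 3.13 on these arrays and Ccl3 between 0.37 and 2.02.

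The marker lists were also read beside the order of the arrays. The neutrophil list had its highest median with OVA+Alum (1.91) and the lowest with OVA (1.17). With OVA+Alum Ccl4 was above PBS by 1.94, more than with OVA (1.49), while Ccl3 (0.53) and Ccl5 (0.48) were within 2-fold of PBS. The large macrophage list was lowest with OVA+Alum (-1.11) and stood at -0.55 with AEPS, -0.29 with OVA and -0.35 with OVA+AEPS. The mast cell list stood at 0.73, 0.79, 0.82 and 0.23 with AEPS, OVA, OVA+AEPS and OVA+Alum, and the inflammatory monocyte list between 0.41 and 0.62. Medians for B cell markers lay between -0.43 and -0.09, for eosinophil markers between 0.07 and 0.41, for red cell and platelet markers between -0.47 and 0.15, and for housekeeping genes between -0.20 and -0.06. For Ly6g, Ly6c2 and Tpsab1, defining markers of neutrophils, monocytes and mast cells, no probe was matched.

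The genes with the pattern most like each member's were found by the root mean square distance of 5 centred log2 values among 13677 other genes. For Ccl3 they were Helz2, a helicase coactivator gene (0.06), Ppm1k, a mitochondrial phosphatase gene (0.10), and Dtx3l, a ubiquitin ligase gene (0.10). Ccl4 was most like Saa2, which encodes an acute-phase serum amyloid A protein (0.14), the protease gene Adamts4 (0.17) and AA467197 (0.18). Saa2 differed from PBS by 3.18 with AEPS, 1.72 with OVA, 2.99 with OVA+AEPS and 1.78 with OVA+Alum. For Ccl5 they were Cemip2, a hyaluronidase gene (0.05), Hoxc12 (0.05), whose signal was only 12.3 to 33.6, and Rnf114, a ubiquitin ligase gene (0.05). Ccr1 was most like Clec4n, which encodes the fungal polysaccharide receptor dectin-2 (0.11), Fasl, the gene of the death ligand (0.12), and 4930581F22Rik (0.14). Clec4n differed from PBS by 0.69 with AEPS, 0.89 with OVA, 0.21 with OVA+AEPS and 0.88 with OVA+Alum, the same order of low and high arrays as Ccr1 in that PBS and OVA+AEPS were lowest.

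Among the members themselves the distances were 0.43 between Ccl3 and Ccl5, 0.49 between Ccl3 and Ccl4 and 0.73 between Ccl4 and Ccl5. Ccr1 lay farther from Ccl3 (0.98) and Ccl4 (1.12), and at 0.57 from Ccl5. Ranked among 13677 genes by nearness to Ccl4, Ccl3 was 79th and Ccl5 438th. From Ccl3, Ccl5 was 227th and Ccl4 346th. From Ccl5, however, Ccl3 was only 3323rd and Ccl4 11797th, and from Ccr1 the nearest member, Ccl5, was 8183rd. The distance also depends on the size of a gene's range, so these values do not mark the ligands as a close group. These distances rest on 5 arrays that share 1 slide and 1 scaling.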

How the data were processed

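RNA of peritoneal cells was labelled with Cy3 and hybridised to single-colour Agilent arrays, 1 for each of 5 injections. Per the file headers, the authors scanned them with Agilent Feature Extraction 10.7.1.1, and the deposited scanner output gives linear intensity, already corrected for background within each array. A second deposited table gives log2 values that the authors had made equal in distribution between arrays. Its log2 scale was worked out from the values. Further columns used were the error of the processed signal, the mean signal, the median background signal and flags of 0 or 1.

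Control spots (3671 per array) and outlier spots (134 to 219) were left out. The log2 processed signal minus each array's 75th percentile was used, with spots of a probe averaged. Of 55681 probes, 26582 were named through RefSeq (GRCm38.p6), and the brightest stood for a gene. A gene entered a comparison if well above background on at least 1 of the 2 arrays and was called at 2-fold. The technical SE comes from the scanner's error. No test was possible with 1 array per group. The steps were tested on simulated data.

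The members, the 19 lists and the tests were chosen with earlier results of these data known. Named by rule were the 4 members, up to 4 members of a list per comparison with the largest difference, and 3 genes per member by likeness of pattern. Further list genes named for their role (Ccl6, Ccl9, Ccr3, Ackr2, Zfp36, Dpp4 and the called genes of a list) were chosen after their values were seen. One gene of the transcription factor list is not reported here and was left out of its counts. Alternatives were other scalings, normexp (offset 50) with quantile normalization in limma 3.58.1 (R 4.3.3), the deposited table, the mean of all probes and no filter. Python 3.11.15, numpy 2.4.6 and pandas 2.3.3 were used.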

Additional observations from a re-analysis of the deposited data

Results flagged for a closer look

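Ccr1 moved in opposite directions with AEPS in the absence and the presence of OVA. It was above PBS by 0.89 ± 0.21 (log2 difference ± technical SE) on the AEPS array, and on the OVA+AEPS array it was below OVA, at -0.97 ± 0.20. Each of these values rests on 1 array per group, and the difference between them was not tested.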

How the results depend on the processing

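The 4 genes' differences in the 5 main comparisons were recomputed under 6 alternatives, giving 120 values. None that exceeded 2-fold changed direction (Ccl5 in OVA+Alum vs OVA lay between -0.03 and 0.05), and 8 moved by more than 1 technical SE, all with spike-in scaling. With it AEPS vs PBS gave 2.68 for Ccl3, 3.78 for Ccl4, 1.84 for Ccl5 and 1.54 for Ccr1, and OVA vs PBS gave 0.66, 1.78, 0.77 and 1.45. This scaling moved the median of all genes in AEPS vs PBS from -0.17 to 0.49 and in OVA vs PBS from -0.14 to 0.15, by the same amount as the members. A call changed 3 times, each for Ccr1: AEPS vs PBS (1.54, spike-in scaling), OVA vs PBS (0.97, normexp and quantile normalization) and OVA+AEPS vs OVA (-1.06, array medians). The cause was not tested. The mean of all probes equals the main value for genes with 1 probe.

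Of 70 recomputed counts over all genes, 17 moved by more than 1.5 times. With spike-in scaling AEPS vs PBS had 3284 higher and 303 lower (main 1299 and 1029), so 91.6% rather than 55.8% were higher, and OVA vs PBS had 1596 and 330 (main 1003 and 614), or 82.9% rather than 62.0%. With normexp and quantile normalization the counts were 776 and 350 in AEPS vs PBS (68.9% higher), 519 and 121 in OVA vs PBS (81.1%), 258 higher with 215 lower for OVA+AEPS vs OVA (main 608 and 542), 139 with 360 for OVA+Alum vs OVA (27.9%, main 625 and 820, 43.3%), and 507 with 451 for OVA+AEPS vs OVA+Alum (main 1014 and 966). Without the filter OVA vs PBS had 1126 lower (51.3% higher), OVA+AEPS vs OVA 1009 higher and OVA+Alum vs OVA 1003 higher. Of 1140 recomputed list counts, 81 moved by more than 1.5 times. No paired analysis was possible because each group has 1 array. Precision is limited by the number of arrays, and each of the 4 probes was well above background on every array.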
